A study of Mus musculus with 36 samples.

Results

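Interferon-stimulated effector genes encode the antiviral proteins that a cell makes once an interferon has bound its receptor. A list of 40 such genes was followed here through the deposited table of 53299 mouse genes. The list was chosen by name, with earlier results of these data known. All 40 members were found in the table, and all 40 were among the 12463 genes that passed the filter on low counts and entered the tests. The study treated conventional dendritic cells derived from mouse bone marrow with FLT3 ligand, a growth factor, and labelled FLT3LcDC2 and FLT3LcDC1, called cDC2 and cDC1 below. RNA was sequenced by Smart-Seq2 after treatments of which 4 are used here: LPS with PGPC (LPS_PGPC), LPS alone, PGPC alone and no treatment (Nothing). LPS is a bacterial cell wall product sensed by the receptor TLR4, and PGPC is an oxidized phospholipid. Each of the 8 groups had 3 libraries, given as biological replicates (4 to 6 in cDC2, 1 to 3 in cDC1 by the ends of their names), except that replicate 6 of cDC2 with PGPC was left out, as were all libraries with alum. The labels name no genotype, strain, age, dose or duration. Both kinds are cells induced in culture, so that they model dendritic cells grown with FLT3 ligand and not cells taken from tissue.

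When TLR4 meets LPS it signals through the adaptor TRIF as well as MyD88. The TRIF branch switches on interferon beta, which acts back on the same and on neighbouring cells through the receptor IFNAR. Signals from IFNAR act on interferon-stimulated response elements (ISRE) before the start of effector genes such as those followed here. In dendritic cells this loop accompanies maturation, alongside the NF-kB programme of cytokines.

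Levels are given as CPM, counts scaled to a common library total with TMM factors. Total counts ranged from 243861 to 16600980 in the 23 libraries used, and 3 counts corresponded to 11.2 CPM in the shallowest library, replicate 6 of untreated cDC2, and to 0.119 CPM in the deepest. The labels were compared with marker genes. Irf8, a factor needed for cDC1, was 61.4 to 129 CPM over all cDC2 libraries and 169 to 1320 CPM over all cDC1 libraries, and Batf3, another, was 0 to 3.74 CPM in untreated cDC2 and 23.2 to 41.1 CPM in untreated cDC1. With LPS Batf3 was 0.512 to 5.87 CPM in cDC2 and 6.5 to 8.24 CPM in cDC1. Xcr1, a defining marker of cDC1, was between 0 and 0.38 CPM in untreated cDC1. Cd209a, a marker of cDC2, was at most 0.268 CPM in all cDC2 libraries and reached 11.5 CPM in cDC1 with PGPC. Other cDC2 markers went both ways. Sirpa was 838 to 1260 CPM in untreated cDC2 and 218 to 502 CPM in untreated cDC1. For Itgam these were 109 to 163 and 31.5 to 54.7 CPM, and for Irf4 0 to 5.42 and 17.1 to 37.1 CPM. The 12 cDC2 markers summed to 1010 to 1530 CPM in untreated cDC2 and 708 to 831 CPM in untreated cDC1. Siglech, a marker of plasmacytoid dendritic cells, was at most 1.88 CPM in untreated cDC2 and at 34.2, 46.9 and 142 CPM in untreated cDC1. In these bulk samples, fewer cells of a type and less RNA per cell cannot be told apart. The p-values below set a difference between groups against the spread between these libraries. In the fit of 23 libraries that spread was estimated for each gene over all 8 groups together. It is therefore not that of the compared libraries alone.

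The promoters of the members were read first, because the ISRE is the element through which such genes are known to answer interferon. RefSeq sequences (GRCm38.p6) were matched for 30 of the 40 members. The core of the ISRE, written as GAAA, any 2 bases, then GAAA, was sought on both strands in the 250 bases before the start site. It occurred for 10 of the 30 members (33.3%), and in 978 of 32851 promoters of all genes (2.98%). A member was counted when any of its promoters held the core, while all genes were counted by promoter, so the shares differ in unit. The stretches below show the core in 9 of these 10 members, with its letters in capitals and overlapping cores run together, each written 5′ to 3′ on the strand of its gene. Where the core lies on the other strand its letters read TTTC, any 2 bases, then TTTC.
Isg15: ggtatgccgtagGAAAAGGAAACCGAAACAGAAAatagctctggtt
Ifit1: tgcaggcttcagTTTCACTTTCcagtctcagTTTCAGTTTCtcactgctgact
Ifit3: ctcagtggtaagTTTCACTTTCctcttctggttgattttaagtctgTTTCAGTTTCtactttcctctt
Ifit3b: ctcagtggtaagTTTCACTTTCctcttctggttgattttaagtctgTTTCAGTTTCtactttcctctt
Oas1a: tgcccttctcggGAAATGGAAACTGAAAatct
Oas1g: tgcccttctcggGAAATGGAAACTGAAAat
Oas3: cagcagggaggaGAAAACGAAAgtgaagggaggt
Rsad2: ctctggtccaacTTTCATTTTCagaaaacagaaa
Bst2: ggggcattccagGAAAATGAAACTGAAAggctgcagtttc

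The stretch of Isg15 lies at chr4:156200863-156200908 on the minus strand and holds 3 overlapping cores. Ifit1 (chr19:34640773-34640825, plus strand), Ifit3 (chr19:34583361-34583428, plus) and Ifit3b (chr19:34607757-34607824, plus) hold 2 each, and the stretches of Ifit3 and Ifit3b are the same letter for letter. Oas1a (chr5:120907526-120907557, minus) and Oas1g (chr5:120887614-120887643, minus) also hold 2 each in shared letters. Oas3 (chr5:120777713-120777746, minus) and Rsad2 (chr12:26456551-26456584, minus) hold 1 core each. Bst2 (chr8:71537575-71537614, minus) holds 2, and Trim30a, not shown, holds 1. An NF-kB-like motif, GGG, any 5 bases, then CC, occurred for 18 of the 30 members (60%) and in 45.8% of all promoters, again counted by gene and by promoter. A match to these letters describes the window and does not show that a factor binds there.

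Many members are neighbours in the genome (GRCm38). The 4 Ifit genes lie together on chromosome 19, 7111 to 27469 bases apart from one to the next. Oas1a, Oas1g, Oas2 and Oas3 lie together on chromosome 5, as do Oasl1 (chr5:114923240-114937915) and Oasl2, 11005 bases apart. Rsad2 (chr12:26442746-26456452) and Cmpk2 (chr12:26469204-26479837) lie 12751 bases apart, and Mx1 and Mx2 lie 72400 bases apart on chromosome 16. Bst2 lies at chr8:71534255-71537456 and Samhd1 at chr2:157097533-157135265. Parp9 and Dtx3l overlap by 682 bases on opposite strands, and reads without strand cannot be told apart there. Of the 35-base runs of Ifit3 transcripts 59.1% also occur in Ifit3b, and of those of Oas1a 66.3% also occur in Oas1g, so that values are uncertain between these copies. For Ifi204, 30.5% of such runs occur in other genes.

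Most members were higher with LPS than with Nothing in both kinds of cell. In cDC2, 33 of 40 members were higher and none was lower at an adjusted p under 0.05 (edgeR quasi-likelihood test, Benjamini-Hochberg adjustment over 12463 genes, used for every adjusted p below unless another tool is named). Of all genes tested 5.82% were called higher in this comparison. The median log2 fold change was 3.35 over the members and 0.03 over all genes. For all 40 members every LPS library of cDC2 lay above every untreated one, as for 14.6% of all genes. In cDC1, 33 of 40 members were also higher with LPS and none was lower, while 8.58% of all genes were called higher. The median was 3.93 over the members and -0.12 over all genes, and for 36 members every LPS library lay above every untreated one (18.9% of all genes). The number called depended on which libraries shared the estimate of the spread: with all 36 libraries of the series in the fit, 2 members were called in cDC2 and 7 in cDC1, with medians of 3.50 and 3.94. Over the alternatives other than that fit, 24 of the 33 calls in cDC2 and 28 of the 33 in cDC1 were kept in each one.

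**Figure D1:**
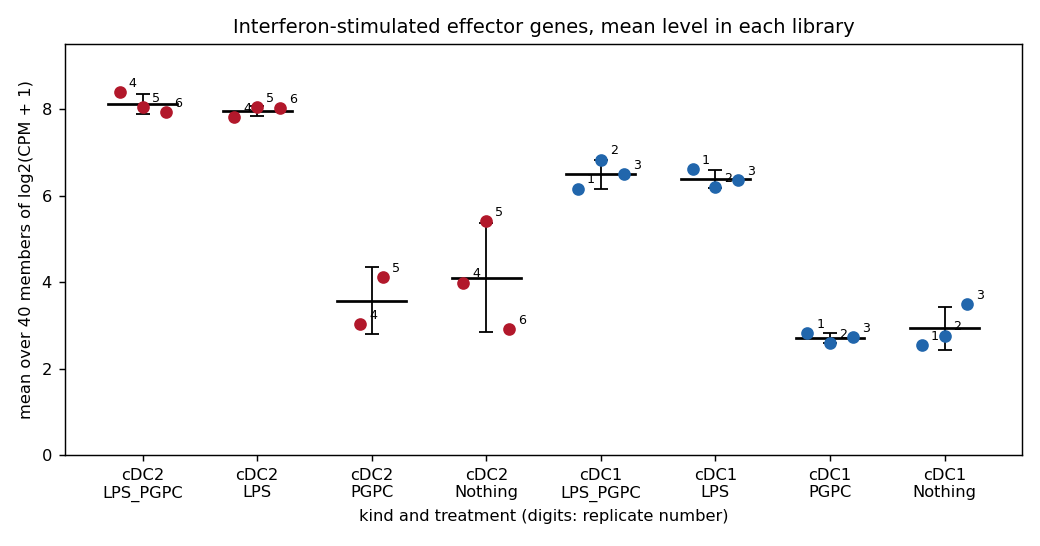
Mean of log2(CPM + 1) over the 40 members in each library (points, labelled with the replicate number), by kind and treatment, with group mean and SD in black. The cDC2 libraries with LPS sit between 7.81 and 8.04 and the untreated ones between 2.92 and 5.41, and the cDC1 libraries with LPS sit between 6.20 and 6.60 and the untreated ones between 2.54 and 3.50.

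The IFIT proteins bind viral RNA and hold back its translation. All 4 members rose with LPS in both kinds, with medians of 4.51 in cDC2 and 4.74 in cDC1. In cDC2 the call of Ifit3 was lost without untreated replicate 4 or 6, and that of Ifit3b without untreated replicate 4. Ifit2, which is known to inhibit viral replication, was at 1400, 1140 and 1020 CPM in cDC2 with LPS, against 13.4, 99.4 and 3.74 CPM with Nothing. Its groups did not overlap, although untreated replicate 5 stood well above the others (log2 fold change 4.78 ± 0.67, SE, adjusted p = 4.13e-05). Ifit1 (chr19:34640871-34650009), which recognises RNA caps that lack methylation, was at 160, 138 and 154 CPM in cDC1 with LPS, against 0.855, 0.886 and 5.45 CPM with Nothing. The LPS libraries lay close together and far above the untreated ones (log2 fold change 5.79 ± 1.05, adjusted p = 0.000403).

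The OAS enzymes sense double-stranded RNA and make oligoadenylates that switch on RNase L. In cDC2, 3 of 6 members rose (median 2.32), and in cDC1, 6 of 6 rose (median 4.06). The call of Oas1g in cDC2 was lost in DESeq2, with the ribosomal RNA locus removed, with the replicate block and when any of the 6 libraries was left out, and that of Oas1a without untreated replicate 4. In cDC1 the call of Oas2 was lost without untreated replicate 1 or 2 or LPS replicate 1 or 3, and that of Oas1g without untreated replicate 3. Oasl1 had the largest log2 fold change of the 40 members in each kind. It lacks synthetase activity and is known in mice to hold down translation of Irf7 mRNA. In cDC2 it stood at 867, 2160 and 1790 CPM with LPS, against 14.7, 53.7 and 7.48 CPM with Nothing (log2 fold change 5.82 ± 0.97, adjusted p = 0.000254). In cDC1 Oasl1 stood at 508, 438 and 546 CPM with LPS, against 4.28, 2.15 and 9.54 CPM with Nothing (log2 fold change 6.50 ± 1.01, adjusted p = 7.87e-05). Neither pair of groups overlapped, and LPS replicate 4 of cDC2 was the lowest of its group. Oas2, Oas3 and Oasl2 did not pass the test in cDC2. Oasl2 was at 405, 505 and 481 CPM in cDC2 with LPS, against 87.3, 181 and 44.9 CPM with Nothing, which did not overlap (log2 fold change 2.10, 95% interval 0.49 to 3.71, adjusted p = 0.109). The untreated cDC2 levels of Oasl2 were all above its untreated cDC1 levels of 3.42, 3.42 and 13.5 CPM.

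Among the sensors of foreign nucleic acid and the kinase PKR, 5 of 6 rose in cDC2 (median 2.95) and 6 of 6 in cDC1 (median 4.09). Zbp1, a sensor of Z-form nucleic acid that can start necroptosis, was at 104, 156 and 171 CPM in cDC2 with LPS, against 5.09, 12.9 and 0 CPM with Nothing, without overlap (log2 fold change 4.2 ± 0.64, adjusted p = 9.59e-05). Ddx58, the gene of the RNA sensor RIG-I, was at 280, 129 and 94.8 CPM in cDC1 with LPS, against 3.42, 3.42 and 2.57 CPM with Nothing. Every LPS library was far above the narrow untreated range (log2 fold change 5.76 ± 0.75, adjusted p = 8.98e-06). Ifih1 and Dhx58, relatives of RIG-I, rose in both kinds, as did Eif2ak2, which encodes PKR, a kinase that stops translation. Eif2ak2 had the smallest log2 fold change of these 6 genes in each kind, 1.55 ± 0.48 in cDC2 (adjusted p = 0.0455) and 2.46 ± 0.49 in cDC1 (adjusted p = 0.000867). Its call in cDC2 held in 6 of 14 settings, being lost without the filter, with the ribosomal RNA locus removed, with the replicate block, with all 36 libraries and without LPS replicate 4 or 6 or untreated replicate 4 or 6. That of Dhx58 in cDC2 was lost without LPS replicate 4 or untreated replicate 4 or 6. Ifi204, a sensor of cytosolic DNA, did not pass in cDC2 (log2 fold change 2.2, 95% interval 0.52 to 3.88, adjusted p = 0.107).

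ISG15 is a ubiquitin-like protein that is attached to other proteins and also secreted. Of it and its handlers, 3 of 4 rose in each kind, with medians of 4.29 in cDC2 and 4.69 in cDC1. In cDC2 Isg15 was at 88.1, 399 and 180 CPM with LPS, against 2.68, 10.1 and 7.48 CPM with Nothing (log2 fold change 5.09 ± 0.76, adjusted p = 7.01e-05). In cDC1 Isg15 was at 86.4, 24.2 and 33.0 CPM with LPS, against 2.57, 0.253 and 1.36 CPM with Nothing (log2 fold change 5.55 ± 0.82, adjusted p = 3.75e-05). The groups did not overlap in either kind, although the LPS libraries of cDC2 spread widely. Usp18, which strips ISG15 off and damps IFNAR, and Herc6, a mouse ligase for ISG15, rose in both. Trim25, a ubiquitin ligase that acts on RIG-I, was called in neither. In cDC2 the log2 fold change of Trim25 was 0.58 (95% interval -0.09 to 1.24, adjusted p = 0.349). In cDC1 it was at 64.6, 90.3 and 94.2 CPM with LPS, against 65.0, 45.0 and 40.1 CPM with Nothing, which overlapped (log2 fold change 0.74, 95% interval 0.07 to 1.41, adjusted p = 0.113).

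PARP9 and DTX3L form a complex that joins ADP-ribosylation to ubiquitination, and PARP12 and PARP14 attach single ADP-ribose units. In cDC2, 3 of 4 rose (median 2.60), and in cDC1, 4 of 4 rose (median 2.80). Parp12 was at 194, 69.0 and 91.0 CPM in cDC2 with LPS, against 14.7, 22.2 and 0 CPM with Nothing, with no overlap (log2 fold change 2.96 ± 0.73, adjusted p = 0.0109). That call was lost without LPS replicate 4 (adjusted p = 0.0594) and without untreated replicate 4 (adjusted p = 0.0685). In cDC1 the call of Parp12 was lost without untreated replicate 2 or 3 or LPS replicate 3, and that of Dtx3l without LPS replicate 3. Parp14 was at 625, 346 and 876 CPM in cDC2 with LPS, against 52.0, 183 and 67.4 CPM with Nothing, and missed the threshold (log2 fold change 2.58, 95% interval 0.69 to 4.47, adjusted p = 0.0889). In cDC1 Parp14 was at 229, 305 and 276 CPM with LPS, against 15.4, 7.85 and 30.3 CPM with Nothing (log2 fold change 3.91 ± 0.97, adjusted p = 0.00664). Its groups were separate in both kinds.

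Antiviral GTPases and the large ATPase and ubiquitin ligase Rnf213 were called higher for 4 of 4 in each kind, with medians of 3.69 in cDC2 and 4.25 in cDC1. The call of Rnf213 in cDC2 was lost without LPS replicate 4 or untreated replicate 4 or 6. Mx1, a restrictor of influenza virus in mice that carry a functional allele, was at 291, 222 and 201 CPM in cDC2 with LPS, against 4.55, 19.6 and 3.74 CPM with Nothing (log2 fold change 4.46 ± 0.93, adjusted p = 0.00236). Mx2, its neighbour and a dynamin-like GTPase, was at 13.4, 2.95 and 8.83 CPM in cDC1 with LPS, against 0, 0.253 and 0.454 CPM with Nothing (log2 fold change 4.72 ± 0.73, adjusted p = 7.16e-05). Neither set of groups overlapped. Ifi47, an immunity-related GTPase, rose by 3.67 ± 0.77 in cDC2 (adjusted p = 0.00233) and by 2.21 ± 0.71 in cDC1 (adjusted p = 0.0333) on the log2 scale. Its call in cDC1 was lost when any library but untreated replicate 3 was left out.

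Among enzymes that act on nucleotides or RNA, 4 of 4 rose in cDC2 (median 4.45) and 2 of 4 in cDC1 (median 3.14). Isg20, an RNA exonuclease, was at 45.6, 315 and 226 CPM in cDC2 with LPS, against 1.88, 12.7 and 0 CPM with Nothing (log2 fold change 4.93 ± 0.97, adjusted p = 0.00137). Rsad2, which encodes viperin, the maker of a chain-terminating nucleotide, was at 59.5, 77.4 and 69.2 CPM in cDC1 with LPS, against 0, 0 and 4.24 CPM with Nothing (log2 fold change 5.29 ± 1.15, adjusted p = 0.00214). Both sets of groups were fully separated. Cmpk2, a mitochondrial nucleotide kinase and the neighbour of Rsad2, was at 1560, 1800 and 2530 CPM in cDC2 with LPS, against 17.4, 325 and 11.2 CPM with Nothing (log2 fold change 3.99 ± 0.77, adjusted p = 0.00111). In cDC1 Cmpk2 was at 55.7, 83.3 and 106 CPM with LPS, against 19.7, 27.7 and 35.6 CPM with Nothing. These groups did not overlap, but the log2 fold change of 1.54 was not called (95% interval 0.08 to 3.00, adjusted p = 0.135), although it was without the filter (adjusted p = 0.0101).

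Samhd1, which breaks down deoxynucleotides and so restricts retroviruses, was called in cDC2 and not in cDC1. It was at 456, 435 and 510 CPM in cDC2 with LPS, against 70.7, 91.4 and 44.9 CPM with Nothing (log2 fold change 2.71 ± 0.35, adjusted p = 1.98e-05). In cDC1 Samhd1 was at 298, 217 and 286 CPM with LPS, against 120, 212 and 150 CPM with Nothing (log2 fold change 0.73, 95% interval 0.05 to 1.41, adjusted p = 0.126, and adjusted p = 0.0481 in DESeq2). Neither pair of groups overlapped, and every untreated cDC2 level lay below every untreated cDC1 level.

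The membrane group holds proteins that tether or block virus particles and a chaperone, and 2 of 3 rose in cDC2 (median 3.31) and 1 of 3 in cDC1 (median 1.08). Bst2, tetherin, which ties budding virions to the cell surface, was at 171, 486 and 332 CPM in cDC2 with LPS, against 31.9, 52.4 and 3.74 CPM with Nothing (log2 fold change 3.31 ± 0.56, adjusted p = 0.000285). In cDC1 Bst2 was at 72.2, 60.8 and 93.3 CPM with LPS, against 47.0, 146 and 119 CPM with Nothing (log2 fold change -0.47, 95% interval -1.52 to 0.58, adjusted p = 0.565). The cDC2 groups were fully separated, while those of cDC1 overlapped. Bst2 was the only member with a negative log2 fold change in cDC1, and its sign turned, to 0.46, when the trend of each library with transcript length was removed. Ifitm3, which blocks fusion of viruses in endosomes, was at 267, 1060 and 636 CPM in cDC2 with LPS, against 61.1, 80.8 and 18.7 CPM with Nothing (log2 fold change 3.52 ± 0.56, adjusted p = 0.000155). In cDC1 Ifitm3 was at 112, 143 and 174 CPM with LPS, against 44.5, 85.3 and 71.6 CPM with Nothing (log2 fold change 1.08, 95% interval 0.02 to 2.14, adjusted p = 0.146). No library of one group reached the other, and Ifitm3 was called in cDC1 at 2.09 with the length trend removed (adjusted p = 0.000582). Rtp4, a chaperone of membrane receptors, did not pass in cDC2 (log2 fold change 2.37, 95% interval 0.39 to 4.34, adjusted p = 0.15). It was at 114, 38.4 and 52.4 CPM in cDC1 with LPS, against 0, 2.02 and 1.06 CPM with Nothing (log2 fold change 5.66 ± 1.15, adjusted p = 0.00121).

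Of the remaining members 5 of 5 rose in cDC2 (median 3.51) and 3 of 5 in cDC1 (median 3.27). Ifi44, a cytoplasmic protein induced by interferon, was at 81.9, 170 and 140 CPM in cDC2 with LPS, against 0.804, 4.65 and 0 CPM with Nothing (log2 fold change 5.68 ± 0.79, adjusted p = 5.57e-05). In cDC1 Ifi44 was at 16.7, 7.09 and 5.89 CPM with LPS, against 0.855, 0 and 0.908 CPM with Nothing (log2 fold change 4.37 ± 0.84, adjusted p = 0.000867). Groups were separated in each kind. Phf11d and Xaf1, a partner of the apoptosis inhibitor XIAP, were called in both kinds, Xaf1 in cDC2 not without LPS replicate 5 or untreated replicate 4. Ifi35, which binds NMI, and Trim30a, a ubiquitin ligase, were called in cDC2 and not in cDC1. Their log2 fold changes in cDC1 were 0.84 for Ifi35 (95% interval -0.04 to 1.72, adjusted p = 0.175) and 1.43 for Trim30a (95% interval 0.19 to 2.67, adjusted p = 0.101).

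**Figure D2:**
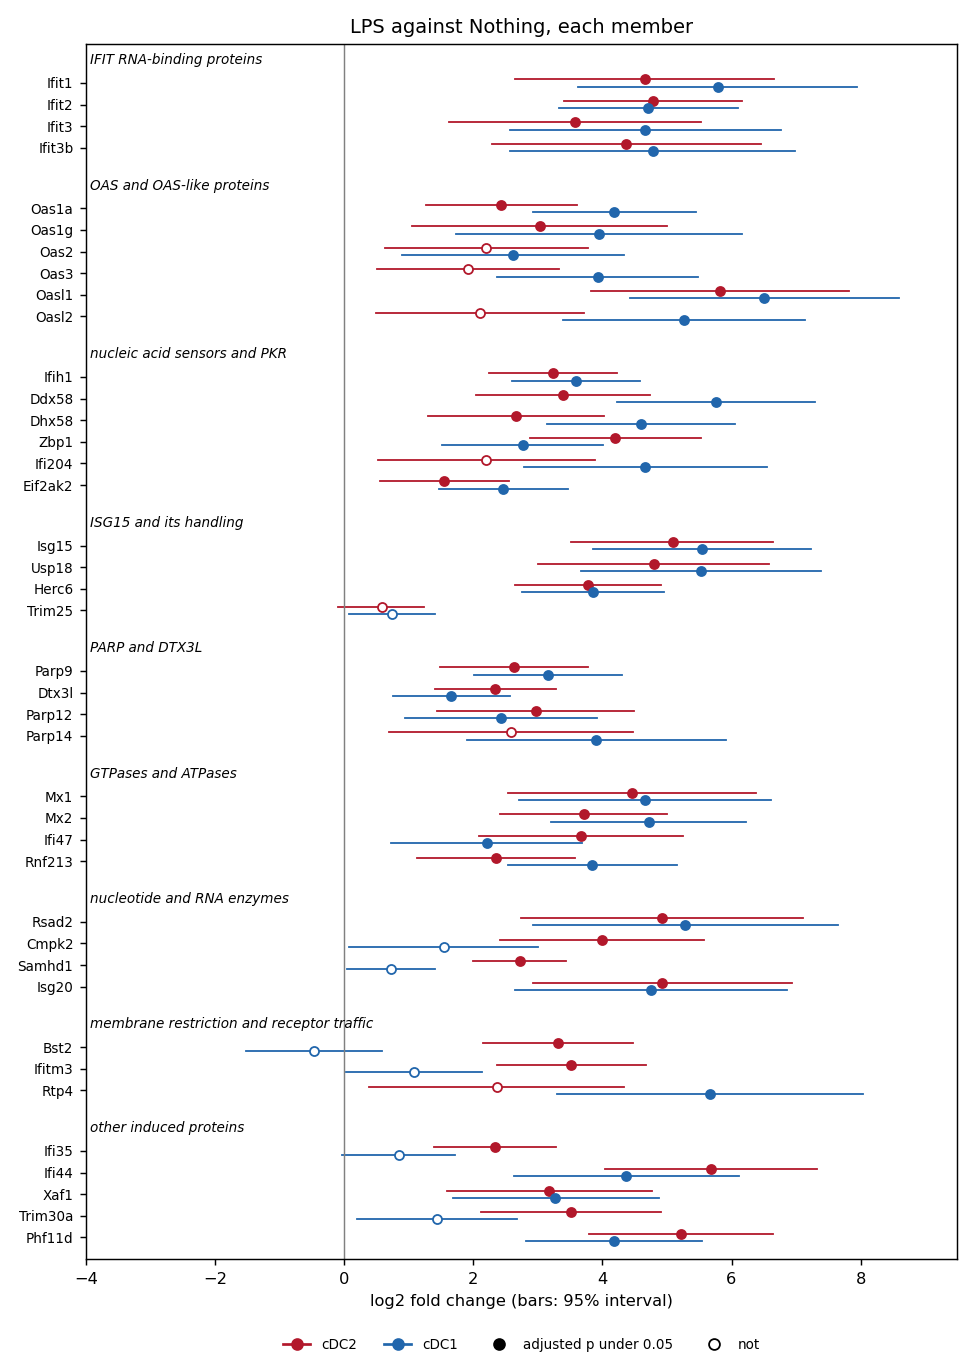
Log2 fold change of LPS against Nothing for each of the 40 members, grouped by role, in cDC2 (red) and cDC1 (blue), with 95% intervals as bars and filled points for an adjusted p under 0.05. Filled points number 33 in each kind, and Bst2 is the only point below 0, at -0.47 in cDC1.

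Libraries with LPS also differed from untreated ones in markers of other cell types. In cDC2 the sum over 12 markers of monocytes and macrophages was 2750 to 4490 CPM with LPS, against 5860 to 7450 CPM with Nothing, and in cDC1 it was 835 to 1710 CPM with LPS, against 1600 to 4430 CPM with Nothing, with none of the 12 at 0. These 12 did not all move together. Lyz2 was at 495, 1460 and 1140 CPM in cDC2 with LPS, against 4060, 3460 and 3410 CPM with Nothing. Adgre1 went the other way, at 2270, 442 and 499 CPM in cDC2 with LPS, against 361, 425 and 299 CPM with Nothing. In cDC1 Adgre1 was at 714, 521 and 265 CPM with LPS, against 19.7, 41.4 and 63.6 CPM with Nothing. The 11 plasmacytoid markers that are no members (Bst2 is itself on that list) summed to 116 to 176 CPM in cDC2 with LPS, with Siglech, Ly6d and Klk1 at 0, against 52.4 to 77.2 CPM with Nothing, with Ly6d and Klk1 at 0. In cDC1 the same 11 summed to 193 to 359 CPM with LPS, against 509 to 714 CPM with Nothing, and Klk1 was at 0 in both. The 10 markers of neutrophils and their precursors summed to 0 to 6.96 CPM in cDC1 with LPS, with 6 of the 10 at 0, among them Mpo, Ctsg and Elane, against 47.0 to 199 CPM with Nothing, with Elane alone at 0. Genes of the ribosomal RNA locus took 2.07 to 6.65% of the counts in cDC2 with LPS, against 3.81 to 6.53% with Nothing, and 2.36 to 4.21% in cDC1 with LPS, against 13.8 to 31% with Nothing. With these genes removed, 31 members were called in cDC2 and 33 in cDC1. The part of the markers in the members' values was not tested.

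The genes around the effector genes were read from lists of the pathway. Of 21 interferon genes, interferon beta of the loop among them, none passed the filter. Ifnb1, interferon beta, had 3 counts in all 23 libraries, 1 each in LPS_PGPC replicate 6 of cDC2, LPS_PGPC replicate 3 of cDC1 and LPS replicate 3 of cDC1, and its highest level was 0.294 CPM. Ifnz had 35 counts, 34 of them in replicate 1 of cDC1 with PGPC, and the other 19 genes had none. A count of 0 allows up to 3 counts, which is at most 2.93 CPM in the libraries with LPS and covers counting error only.

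Among 9 receptor and Janus kinase genes, of which 8 were tested, 3 rose with LPS in cDC2, and 2 rose and 1 fell in cDC1. Of all 12463 genes tested, 725 were called higher in cDC2, and 1069 higher and 1166 lower in cDC1. Jak2 rose in both, by 3.48 ± 0.53 in cDC2 (adjusted p = 9.59e-05) and by 3.80 ± 0.51 in cDC1 (adjusted p = 1.27e-05) on the log2 scale, and so did Tyk2, the kinase bound to IFNAR1. Ifnar2, a chain of the interferon receptor, was not called in cDC2 (log2 fold change 0.53 ± 0.34, adjusted p = 0.451). In cDC1 it averaged 107 ± 15.7 CPM with LPS and 396 ± 83.7 CPM with Nothing (SD, n = 3 each; log2 fold change -1.89 ± 0.35, adjusted p = 0.000418). The effect of LPS on Ifnar2 differed between the kinds by 2.41 ± 0.49 on the log2 scale, higher in cDC2 (adjusted p = 0.0121). Ifnar1 was called in neither kind.

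Factors downstream of TLR4 and IFNAR were also read. Irf7, the factor that amplifies interferon production, was at 4340, 3300 and 2440 CPM in cDC2 with LPS, against 55.5, 179 and 41.2 CPM with Nothing (log2 fold change 5.14 ± 0.67, adjusted p = 1.98e-05). In cDC1 Irf7 was at 1210, 528 and 569 CPM with LPS, against 24.0, 7.59 and 21 CPM with Nothing (log2 fold change 5.49 ± 0.68, adjusted p = 5.67e-06). No libraries overlapped. Stat2 and Stat3 rose in both. Irf9, the partner of STAT2, missed the threshold in cDC2 (1.55 ± 0.50, adjusted p = 0.0550) and was called in cDC1 (2.30 ± 0.50, adjusted p = 0.00210), and the test of the difference did not call it (-0.75 ± 0.69, adjusted p = 0.696). Irf1 rose in cDC2 (2.51 ± 0.45, adjusted p = 0.000450) and was not called in cDC1 (-0.12 ± 0.41, adjusted p = 0.883), and its difference was called (2.62 ± 0.60, adjusted p = 0.0233).

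Of 8 negative feedback genes 6 rose with LPS in cDC2 and 5 in cDC1. Socs1, which blocks Janus kinases, rose by 4.75 ± 0.68 in cDC2 (adjusted p = 4.49e-05) and by 2.71 ± 0.60 in cDC1 (adjusted p = 0.00242). Of 10 genes of the TLR4 and TRIF branch 5 rose in cDC2 and 4 in cDC1, among them Traf3 and Cd14 in both. Ikbke, a kinase upstream of IRF factors, was not called in cDC2 (2.26 ± 0.81, adjusted p = 0.0955) and rose in cDC1 (5.83 ± 1.00, adjusted p = 0.000222), with no call for the difference (-3.57 ± 1.20, adjusted p = 0.16). Of 20 NF-kB targets 18 rose in each kind, with a median of 4.05 in cDC2 and 5.79 in cDC1.

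**Figure D3:**
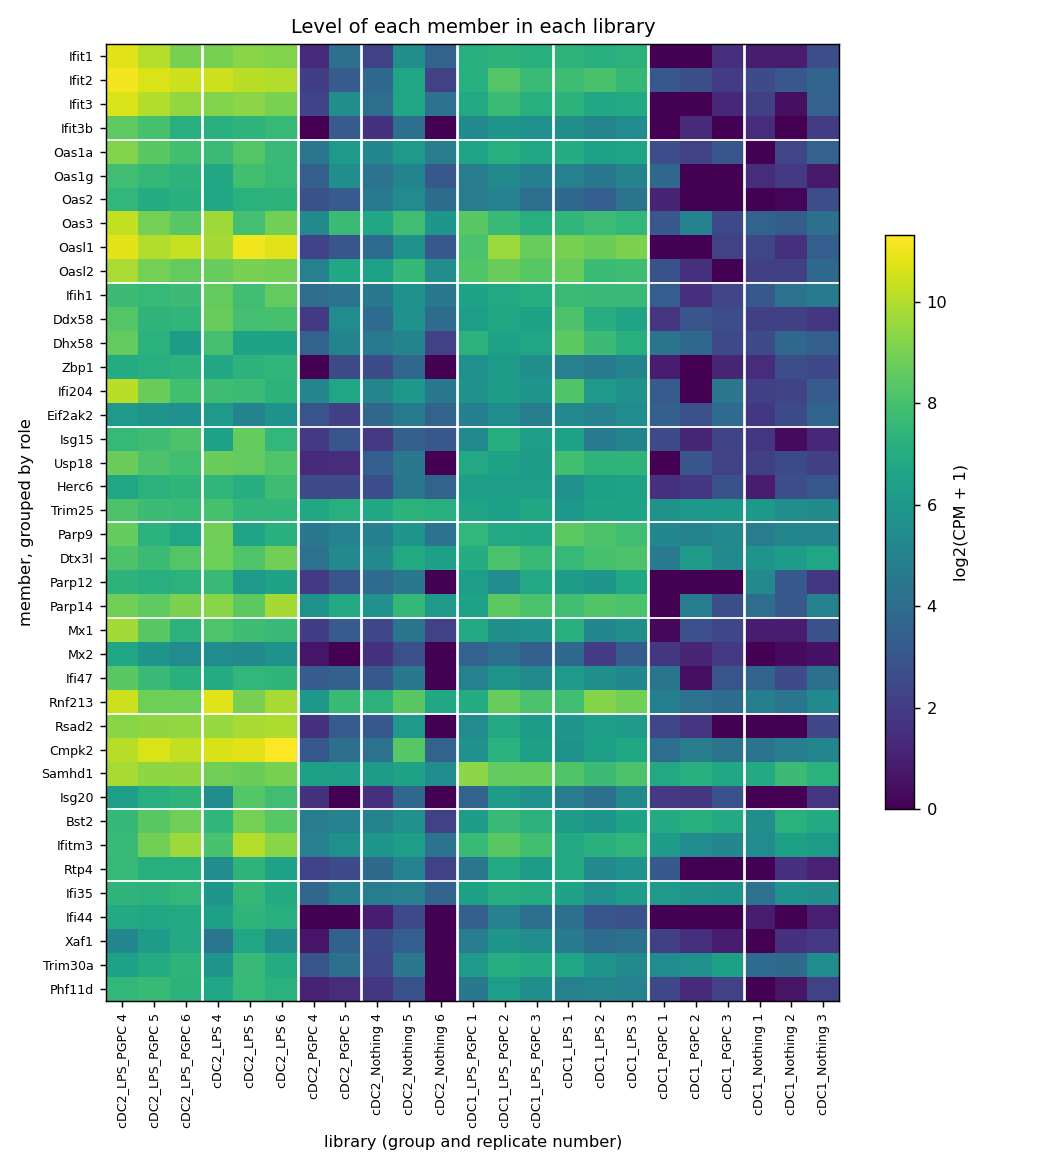
Level of each member (rows, grouped by role, log2(CPM + 1)) in each of the 23 libraries (columns, by group). In both kinds most members have higher levels in the columns of LPS_PGPC and LPS than in those of PGPC and Nothing, and in untreated cDC2 replicate 5 has the highest level for all 40 members.

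The response to LPS was also measured in cells that had PGPC. In cDC2, 35 of 40 members were higher with LPS_PGPC than with PGPC and none was lower (4.43% of all genes were higher), with a median log2 fold change of 4.31 over the members and 0.12 over all genes. For all 40 the libraries did not overlap (24.2% of all genes, with 3 libraries against 2). Leaving out PGPC replicate 4 of cDC2, after which 1 library stands for that group and is assumed to vary like the others, reduced the 35 calls to 10, and leaving out PGPC replicate 5 gave 26. In cDC1, 36 of 40 were higher and none was lower (9.79% of all genes were higher), with a median of 4.31 over the members and -0.07 over all genes, and 38 did not overlap (15.8% of all genes). With all 36 libraries in the fit, 3 members were called in cDC2 and 13 in cDC1. In cDC1 the monocyte and macrophage markers summed to 561 to 818 CPM with LPS_PGPC, against 4380 to 5960 CPM with PGPC, with none at 0. The neutrophil markers there summed to 1.16 to 70.2 CPM with LPS_PGPC, with Mpo, Elane and Ctsg at 0, against 259 to 1160 CPM with PGPC, with Elane at 0, and the 6 markers of mast cells and basophils to 0.91 to 2.9 CPM with LPS_PGPC, with Mcpt8, Ms4a2 and Fcer1a at 0, against 50.5 to 77.9 CPM with PGPC, with none at 0. In cDC2 the monocyte and macrophage markers summed to 2790 to 5060 CPM with LPS_PGPC, with none at 0, against 4890 to 5930 CPM with PGPC, with Ly6c2 at 0. Of these, Csf1r was at 906, 320 and 234 CPM with LPS_PGPC, against 1580 and 2120 CPM with PGPC. Fcgr1 went the other way, at 231, 204 and 153 CPM with LPS_PGPC, against 8.22 and 25.8 CPM with PGPC. The ribosomal RNA locus took 3.96 to 5.23% of counts in cDC2 with LPS_PGPC, against 19.1 to 23.8% with PGPC, and 2.72 to 10% in cDC1 with LPS_PGPC, against 5.39 to 12.5% with PGPC. With these genes removed, 34 members were called in cDC2 and 36 in cDC1, and the part of the markers was not tested.

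In cDC2 Oasl1 was at 1850, 1040 and 1280 CPM with LPS_PGPC, against 3.84 and 6.89 CPM with PGPC (log2 fold change 8.15 ± 1.36, adjusted p = 0.000588). It was at 274, 769 and 408 CPM in cDC1 with LPS_PGPC, against 0, 0 and 3.57 CPM with PGPC (log2 fold change 8.44 ± 1.09, adjusted p = 1.41e-05). Ifi44 had no count in any library with PGPC, and against a floor of 3 counts in each library it was at least 33.7-fold higher with LPS_PGPC in cDC2 and at least 45.7-fold higher in cDC1. Parp12 had no count in cDC1 with PGPC and was at least 183-fold higher with LPS_PGPC there. Members not called were Oas1g, Oas3, Ifi204, Parp14 and Trim25 in cDC2 and Ifi35, Trim30a, Bst2 and Trim25 in cDC1. Bst2 was at 75.0, 193 and 151 CPM in cDC1 with LPS_PGPC, against 120, 142 and 121 CPM with PGPC, which overlapped.

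When PGPC was given with LPS, no member passed the test against LPS alone in either kind. In cDC2, 0 of 40 passed, where 0.385% of all genes did (35 higher and 13 lower), with a median of 0.16 over the members and 0.01 over all genes. At an unadjusted p under 0.05 edgeR gave 2 members there, Ifi204 and Samhd1, and 1003 of the 12463 genes tested. DESeq2 called 0 members after adjustment. In cDC1, 0 of 40 passed, where 1.93% of all genes did (173 higher and 68 lower), with a median of 0.18 over the members and 0.07 over all genes. At an unadjusted p under 0.05 edgeR gave 2 members there, Samhd1 and Parp9, and 2081 of the 12463 genes tested. DESeq2 called 1 member after adjustment, Samhd1, and the share of all genes it called is not given here. A p that misses the threshold does not show that LPS_PGPC and LPS act alike. The 95% interval lay within 4-fold in either direction for 31 members in cDC2 and for 27 in cDC1, and within 2-fold for 1 member in each. The highest bound was 3.22 (Ifi204 in cDC2) and the lowest -2.74 (Ifi204 in cDC1). These comparisons share the LPS libraries with those of LPS against Nothing.

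Samhd1 had the smallest adjusted p of the members in each kind. In cDC2 it was at 900, 673 and 678 CPM with LPS_PGPC, against 456, 435 and 510 CPM with LPS (log2 fold change 0.69 ± 0.33, 95% interval 0.01 to 1.36, adjusted p = 0.612). In cDC1 Samhd1 was at 653, 384 and 392 CPM with LPS_PGPC, against 298, 217 and 286 CPM with LPS (log2 fold change 0.83 ± 0.33, 95% interval 0.15 to 1.51, adjusted p = 0.192, and adjusted p = 0.0388 in DESeq2). Its groups overlapped in neither kind. Ifih1, chosen after its values were seen, had the lower values with LPS_PGPC in both. In cDC2 it was at 214, 187 and 212 CPM with LPS_PGPC, against 379, 229 and 383 CPM with LPS (log2 fold change -0.69 ± 0.43, adjusted p = 0.787). In cDC1 Ifih1 was at 93.5, 117 and 129 CPM with LPS_PGPC, against 208, 204 and 203 CPM with LPS (log2 fold change -0.85 ± 0.43, adjusted p = 0.323). The difference between the kinds in the effect of PGPC on LPS was called for 0 of 40 members (0.00802% of all genes), and DESeq2 called 0. At an unadjusted p under 0.05 edgeR gave 1 member, Ifi204, and 996 of the 12463 genes tested. The median of this difference was 0.01 over the members and -0.05 over all genes.

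**Figure D4:**
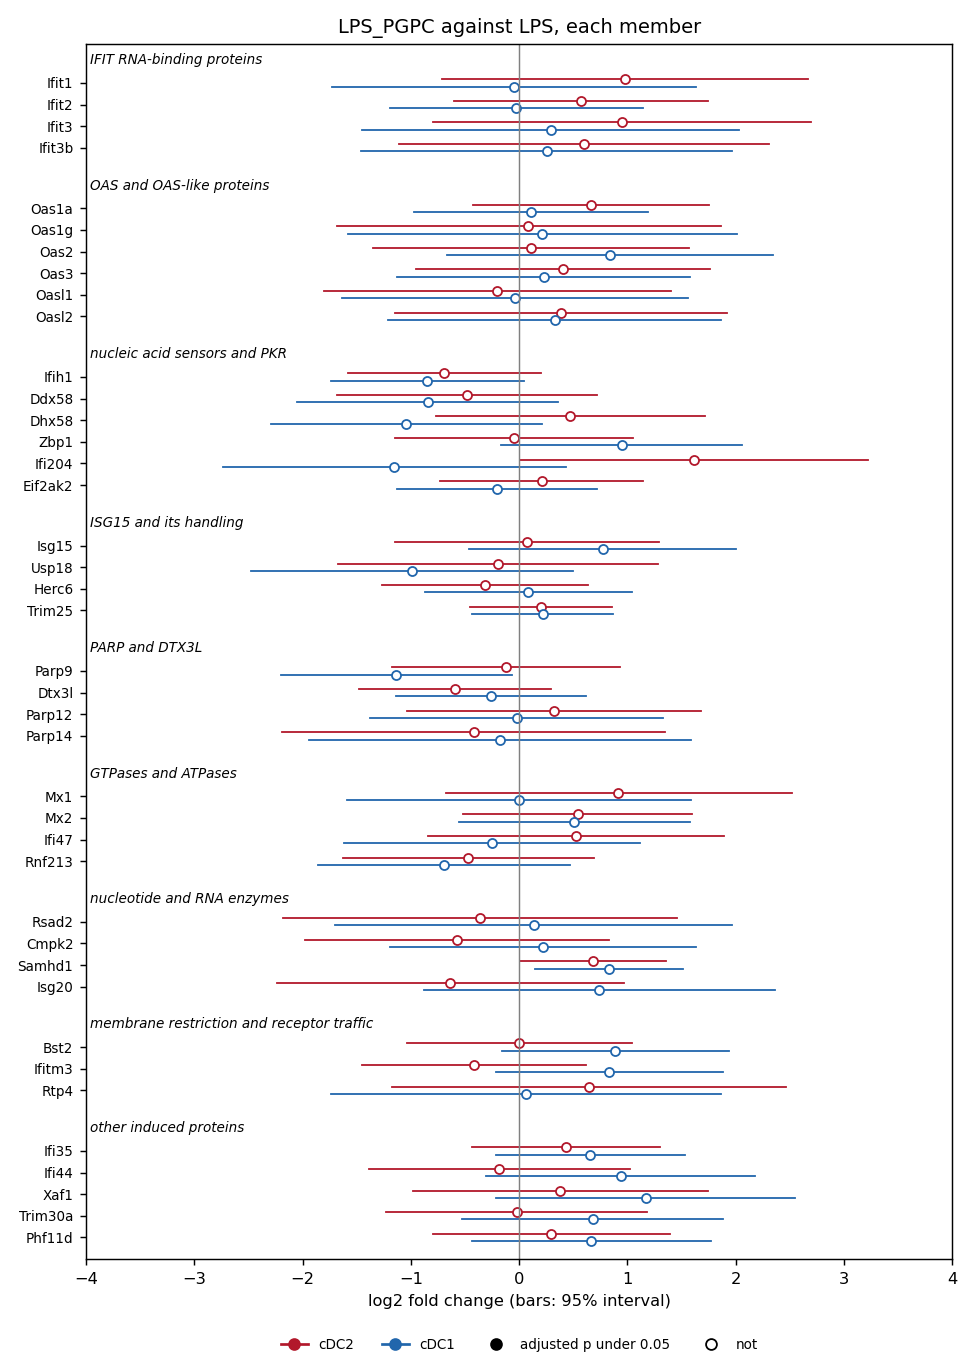
Log2 fold change of LPS_PGPC against LPS for each of the 40 members, grouped by role, in cDC2 (red) and cDC1 (blue), with 95% intervals as bars and open points where the adjusted p was not under 0.05. All points are open, and the medians are 0.16 in cDC2 and 0.18 in cDC1.

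PGPC alone was compared with Nothing. In cDC2, 0 of 40 were called with PGPC against Nothing (0.0160% of all genes were called). At an unadjusted p under 0.05 edgeR gave 10 members and 723 of the 12463 genes tested. After adjustment 2 members were called by DESeq2 and 3 without the filter, and the shares of all genes called in those fits are not given here. The 95% interval lay within 4-fold in either direction for 11 of the 40 members, so that changes of that size are not excluded for the others. The median was -1.06 over the members and -0.05 over all genes, but over the members it was -0.05 without untreated replicate 5 and -0.29 without PGPC replicate 4. Cmpk2 was at 7.67 and 17.2 CPM in cDC2 with PGPC, against 17.4, 325 and 11.2 CPM with Nothing. The groups overlapped, and its log2 fold change of -3.42 ± 0.96 was not called (95% interval -5.41 to -1.44, adjusted p = 0.617).

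In cDC1, 1 of 40 members was higher with PGPC and 1 lower, while 2.08% of all genes were called in either direction, and the median was -0.15 over the members (0.30 without untreated replicate 3) and 0.00 over all genes. Mx2 was at 2.57, 1.3 and 2.68 CPM in cDC1 with PGPC, against 0, 0.253 and 0.454 CPM with Nothing, with no overlap (log2 fold change 2.79 ± 0.74, adjusted p = 0.0447). The call of Mx2 was lost when any of 5 of the 6 libraries was left out, all but PGPC replicate 2, with adjusted p up to 0.158. Parp12 was at 0 in all 3 libraries with PGPC, against 39.3, 7.85 and 2.57 CPM with Nothing, at least 38.7-fold lower against a floor of 3 counts in each library (adjusted p = 0.000816). That bound was 12.1-fold without untreated replicate 1, the highest library. The count of members called was 10 without the filter (2 higher and 8 lower), 5 in DESeq2, 1 with all 36 libraries, 5 without PGPC replicate 1, 4 without PGPC replicate 3 and 1 without untreated replicate 3. As the shares of all genes called in those fits are not given here, these counts cannot be set against them. The 6 markers of mast cells and basophils summed to 50.5 to 77.9 CPM in cDC1 with PGPC, with none at 0, against 1.27 to 2.88 CPM with Nothing, with Mcpt8, Prss34, Ms4a2 and Fcer1a at 0. The neutrophil markers summed to 259 to 1160 CPM with PGPC, against 47.0 to 199 CPM with Nothing, with Elane at 0 in both. Their part in the members' values was not tested.

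The members were also compared between the kinds at each treatment. The 12 monocyte and macrophage markers also differed, at 5860 to 7450 CPM in untreated cDC2 and 1600 to 4430 CPM in untreated cDC1, 2750 to 4490 CPM in cDC2 and 835 to 1710 CPM in cDC1 with LPS, and 2790 to 5060 CPM in cDC2 and 561 to 818 CPM in cDC1 with LPS_PGPC, with none of the 12 at 0, and their part was not tested. Without treatment, 16 of 40 were higher in cDC2 than in cDC1 (4.01% of all genes were) and 2 were lower (6.14% of all genes were), with a median of 2.24 over the members and -0.10 over all genes. For 13 members every untreated cDC2 library was above every cDC1 library (14.9% of all genes). Of the 6 OAS members 5 were higher, all but Oasl1. Oas1a was at 36.2, 65.3 and 26.2 CPM in untreated cDC2, against 0, 4.18 and 10.6 CPM in untreated cDC1, without overlap (log2 fold change 2.97 ± 0.60, adjusted p = 0.00210). Oasl2 was higher by 3.91 ± 0.86 on the log2 scale (adjusted p = 0.00466). The 2 lower members were Samhd1 (-1.18 ± 0.34, adjusted p = 0.0263) and Bst2 (-1.66 ± 0.53, adjusted p = 0.0468), and Bst2 was not called with the length trend removed (-0.40, adjusted p = 0.642). The call of Samhd1 was lost without untreated replicate 4 or 6 of cDC2 or replicate 2 of cDC1, and that of Bst2 without any of these or replicate 3 of cDC1, with adjusted p up to 0.2.

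The untreated difference leaned on single libraries. Replicate 5 was the highest of the 3 untreated cDC2 libraries for 40 of 40 members, with a mean log2(CPM + 1) over the members of 5.41, while replicate 4 had 3.99 and replicate 6 had 2.92. Without replicate 5, 6 members were higher and 3 lower in untreated cDC2, and the median was 0.83. Without replicate 1 of untreated cDC1, 11 members were called, and without its replicate 2, 8 were. With all 36 libraries in the fit none of the 18 calls remained. In cDC2 with PGPC, replicate 5 was the higher library for 35 of 40 members.

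With LPS, 13 of 40 members were higher in cDC2 than in cDC1 (5.59% of all genes) and none was lower, with a median of 1.5 over the members and -0.04 over all genes. For 28 members every cDC2 library was above every cDC1 library (13.4% of all genes). Cmpk2, whose values stand above, had the largest log2 fold change, 4.59 ± 0.79 (adjusted p = 0.000501). Rsad2 was at 757, 905 and 950 CPM in cDC2 with LPS, against 59.5, 77.4 and 69.2 CPM in cDC1 with LPS (log2 fold change 3.67 ± 0.98, adjusted p = 0.0200). Ifi44 differed by 3.67 ± 0.65 (adjusted p = 0.000840). The others called were Ifit2, Isg15, Isg20, Mx2, Oas2, Zbp1, Bst2, Ifitm3, Trim25 and Phf11d. The count of members called was 8 without LPS replicate 5 of cDC2, 4 without LPS replicate 1 of cDC1 and 1 with all 36 libraries in the fit.

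With LPS_PGPC, 12 of 40 members were higher in cDC2 (4.60% of all genes) and none was lower, with a median of 1.47 over the members and -0.03 over all genes, and the libraries did not overlap for 31 members (14.0% of all genes). Ifit2 was at 2220, 1690 and 1380 CPM in cDC2 with LPS_PGPC, against 137, 314 and 205 CPM in cDC1 with LPS_PGPC (log2 fold change 3.01 ± 0.61, adjusted p = 0.00294). Cmpk2 was at 1100, 1620 and 1250 CPM in cDC2, against 52.5, 147 and 85.6 CPM in cDC1 (log2 fold change 3.80 ± 0.76, adjusted p = 0.00280). Both genes were separated by a wide gap. The others called were Ifit1, Mx2, Oas1a, Oas2, Rsad2, Ifi44, Ifi47, Ifi204, Trim25 and Phf11d. Leaving out replicate 4 of cDC2 with LPS_PGPC, the highest of its group for 26 of 40 members, reduced the count to 3. The count was 6 without replicate 5 of cDC2, 4, 5 and 4 without replicates 1, 2 and 3 of cDC1, and 0 with all 36 libraries in the fit.

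Whether LPS acted differently in the kinds was tested as the LPS effect in cDC2 minus that in cDC1. Of 40 members 2 had a larger effect in cDC2 and none a smaller one, and 1.33% of all genes were called in either direction. Without the filter 7 members were called, 3 with a larger and 4 with a smaller effect in cDC2, and the share of all genes is not given here. The median was -0.39 over the members and 0.18 over all genes, and over the members it turned to 0.50 without untreated replicate 5 of cDC2. Bst2 differed by 3.78 ± 0.75 (adjusted p = 0.0112), and its call held in each fit that left out 1 library, with values of 3.39 to 4.37. With the length trend removed it was 2.86 (adjusted p = 0.0151), and it was not called with all 36 libraries in the fit (4.0, adjusted p = 0.832). Samhd1 differed by 1.98 ± 0.47 (adjusted p = 0.0320), and its call was lost when any of 7 of the 12 libraries was left out (LPS replicates 5 and 6 and untreated replicates 4 and 6 of cDC2, LPS replicates 1 and 2 and untreated replicate 2 of cDC1), with adjusted p up to 0.0936. Of both genes the LPS level was higher in every cDC2 library than in any cDC1 library, and Bst2 in untreated cells overlapped between the kinds. Siglech, a plasmacytoid marker, was 0 CPM in all cDC2 libraries with LPS, against at most 1.88 CPM with Nothing, and at 8.03, 3.54 and 2.65 CPM in cDC1 with LPS, against 34.2, 46.9 and 142 CPM with Nothing. The 11 plasmacytoid markers other than Bst2, of which Siglech is 1, went the other way in cDC2 as a sum. They summed to 116 to 176 CPM in cDC2 with LPS, against 52.4 to 77.2 CPM with Nothing. In cDC1 they summed to 193 to 359 CPM with LPS, against 509 to 714 CPM with Nothing. The part of these markers in the value of Bst2 was not tested.

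**Figure D5:**
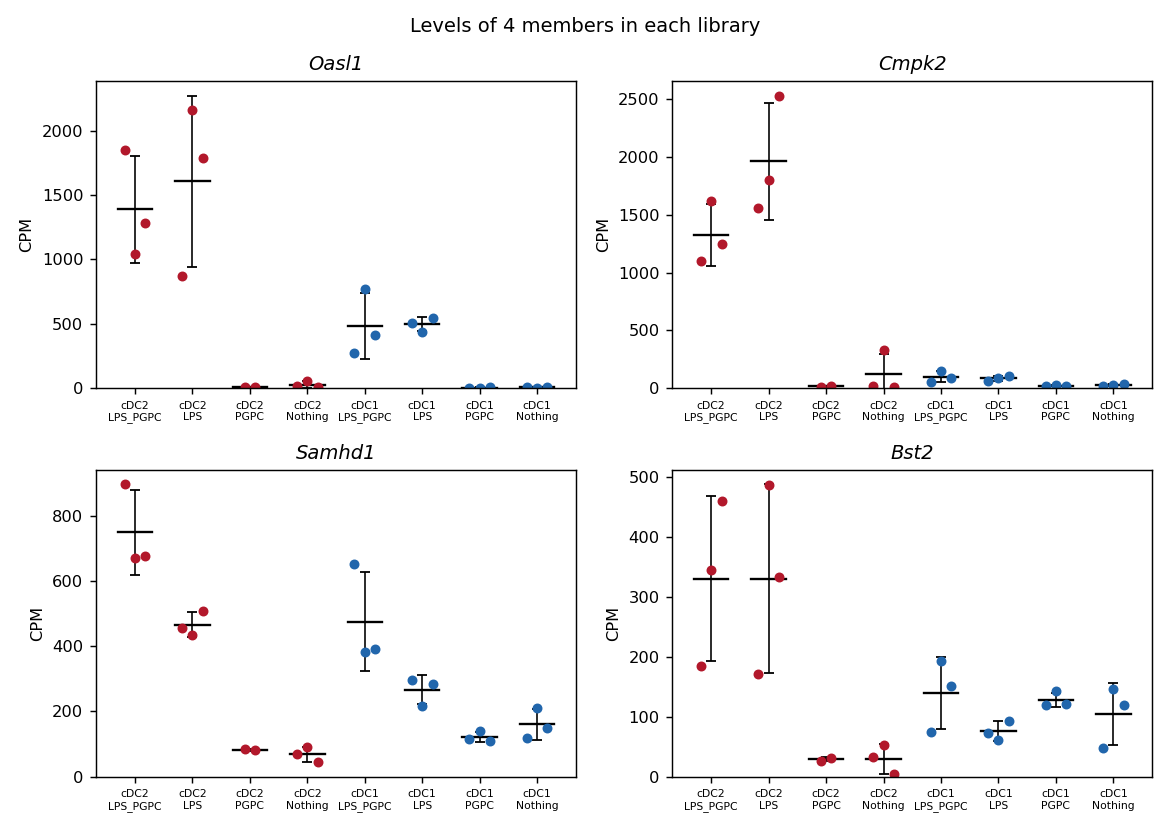
Levels in CPM of Oasl1, Cmpk2, Samhd1 and Bst2 in each library (points), by kind and treatment, with group mean and SD in black. Cmpk2 with LPS lies at 1560 to 2530 CPM in cDC2 and at 55.7 to 106 CPM in cDC1, and Bst2 with LPS lies above its untreated level in every cDC2 library and overlaps it in cDC1.

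Between members, levels were compared per kilobase (kb) of the longest transcript. In cDC2 with LPS the highest mean level was that of Ifitm3, at 964 CPM per kb, before Oasl1 at 735 and Cmpk2 at 600, and the lowest was Eif2ak2 at 11.8. In cDC1 with LPS the highest was Oasl1 at 228 CPM per kb, before Ifitm3 at 211, and the lowest was Ifi44 at 2.43. In untreated cells Ifitm3 was first in cDC2, at 79.0 CPM per kb, and Bst2 in cDC1, at 131. Whether neighbours in these orders differ was not tested.

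Libraries of a group also differed with transcript length. Deviations of log2(CPM + 1) from the mean of the 8 group means had a median of 0.455 over long genes (transcripts of at least 3500 bases) and of -0.986 over short genes (at most 1500 bases) in replicate 4 of cDC2 with LPS. There 11 of 16 long members lay above the group mean and 0 of 5 short ones did, the short ones being Isg15, Isg20, Ifi35, Bst2 and Ifitm3. In replicate 5 of that group 4 of 16 long and 5 of 5 short members lay above. In cDC1 the median deviation of short genes was 0.0216, -0.244 and 0.00295 with LPS, against 0.281, 0.980 and 0.576 with Nothing. With the trend removed, 33 members were higher with LPS in cDC2 and 35 in cDC1, with medians of 3.34 and 3.87.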

How the data were processed

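The authors deposited expected counts per gene symbol from RSEM on GRCm38, after bcl2fastq 2.2, per the submitters' processing notes. The sources used here give no RSEM version, aligner or annotation. Of nonzero values 21% were not whole (tolerance 1e-06), so the expected counts were rounded. Per the labels, libraries were Smart-Seq2 with Nextera XT, which keep no strand.

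The 23 libraries entered an edgeR 4.0.16 quasi-likelihood fit (R 4.3.3, limma 3.58.1) with 8 group means, TMM scaling, robust dispersions and filterByExpr (minimum count 10, minimum total 15). There were 13 contrasts, with Benjamini-Hochberg adjustment over 12463 genes and a threshold of 0.05. SE follow from the F statistic, intervals are 95%, and SD are over libraries. Intervals and the floor of 3 counts per library cover sampling error only. The procedure was also run on simulated counts in which genes were changed in cDC1 with LPS only. Only LPS against Nothing in cDC1 was read there, and the outcome is not given here.

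The members and lists were chosen with earlier results of these data known. Values in every library are given for 1 to 3 called members per role with the largest change and at least 5 CPM in the higher group, for members against the direction of most or among few not called, for all called where 10 or fewer were, and for up to 6 pathway genes with the smallest adjusted p. Ifih1 under LPS_PGPC and Siglech were added after their values were seen. Alternatives were RLE scaling, no filter, a minimum count of 30, DESeq2 1.42.0, removal of ribosomal RNA locus genes, all 36 libraries, each library left out, the replicate number as a block and, chosen after seeing the data, removal of each library's trend with transcript length.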

Additional observations from a re-analysis of the deposited data

Results flagged for a closer look

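In the fit of 23 libraries, the test of the difference called the LPS effect different between cDC2 and cDC1 for 2 members. It called 1.33% of all genes in either direction. The LPS effect was larger in cDC2 by 3.78 on the log2 scale for Bst2 and by 1.98 for Samhd1. The call of Bst2 held in 19 of 20 settings and that of Samhd1 in 11 of 20. Neither was called with all 36 libraries in the fit.

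In libraries outside the comparisons, the members' share of counts lay above its controls in cDC1 and overlapped them in cDC2. Depths of the alum libraries are not given here, and these shares may rest on few counts. In cDC1 with LPS and alum the 40 members took a median of 0.615% of all counts (0.586 to 0.786%, 3 libraries), above alum alone (0.00179 to 0.259%) and Nothing (0.0270 to 0.0809%). Only 12 to 14 members had any count with LPS and alum, and 2 to 8 with alum alone. In cDC2 with LPS and alum the share was 0.219 to 1.51% (3 libraries, 6 to 9 members with any count), which overlapped alum alone (0.00871 to 0.339%) and Nothing (0.0878 to 0.281%).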

How the results depend on the processing

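Depth limits the untreated and PGPC groups of cDC2 most, where 1 count is worth up to 3.74 CPM. Direction held: no called member changed sign in any alternative. Counts of members called are given below with the number called in the fit of 23 libraries in brackets. The shares of all genes called in the alternatives are not given here.

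With all 36 libraries in the fit, LPS against Nothing gave 2 in cDC2 (33) and 7 in cDC1 (33), LPS_PGPC against PGPC gave 3 in cDC2 (35) and 13 in cDC1 (36), PGPC against Nothing gave 1 in cDC1 (2), and cDC2 against cDC1 gave 0 with Nothing (18), 1 with LPS (13) and 0 with LPS_PGPC (12). The difference in the LPS effect gave 0 (2). That fit pooled a larger spread (biological coefficient of variation 0.833 against 0.545) over 11482 genes. Without the filter, LPS_PGPC against LPS in cDC2 gave 1 (0), PGPC against Nothing gave 3 in cDC2 (0) and 10 in cDC1 (2), cDC2 against cDC1 gave 20 with LPS (13) and 20 with LPS_PGPC (12), and the difference between the kinds gave 7 for LPS (2) and 1 for PGPC on LPS (0). DESeq2 gave 1 for LPS_PGPC against LPS in cDC1 (0), and for PGPC against Nothing 2 in cDC2 (0) and 5 in cDC1 (2). The cause was not tested.

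Leaving out 1 library gave 24 to 32 for LPS in cDC2 and 29 to 32 in cDC1, 10 to 35 for LPS_PGPC against PGPC in cDC2 and 31 to 35 in cDC1, and 1 to 5 for PGPC against Nothing in cDC1. Between cDC2 and cDC1 it gave 8 to 17 with Nothing, 4 to 13 with LPS and 3 to 11 with LPS_PGPC, and 1 to 3 for the difference in the LPS effect. The log2 fold change of Bst2 for LPS in cDC1 became 0.46 (adjusted p = 0.494) with the transcript length trend removed, against -0.47 without that step. RLE scaling, a minimum count of 30 and removal of ribosomal RNA locus genes kept all counts within 1.5 times.

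Same-numbered libraries of compared groups did not deviate together throughout (correlations -0.244 to 0.590, other numbers -0.536 to 0.404), so the numbers are not known to pair them. The lowest, -0.244, came from LPS_PGPC against PGPC of cDC2, where the deviations of the 2 PGPC libraries mirror each other. With the replicate block, PGPC against Nothing in cDC1 gave 1 (2), Mx2 being lost, and LPS gave 31 in cDC2 and 34 in cDC1. In LPS_PGPC against LPS of cDC2, the only comparison in which every pair exceeded 0.1, the block gave 0 as before. Every pair was also positive in cDC1 for LPS_PGPC against LPS (0.053 to 0.217) and against PGPC (0.077 to 0.149). The same held for PGPC against Nothing in cDC2 (0.032 to 0.066). Counts with the block are not given here for these comparisons, so pairing is not excluded there. No paired analysis was possible between cDC2 and cDC1 because they share no number.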
